A study of Mus musculus with 3 samples.

Results

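LOC100504180 and id168241 are neighbouring gene names on chromosome 10 that belong to the mouse double homeobox (Dux) family, and their sites were chosen by gene name because the reads at them were far deeper than at most sites of the exonic variant table. The measured values that chose them were the depths, so depth is described here and not tested. The pair held 105 single-base sites, 51 in LOC100504180 and 54 in id168241, of 11544 single-base sites in 2193 gene names. Genomic DNA of 3 androgenetic haploid embryonic stem cell (AG-haESC) lines on a C57BL/6 background, grown in 2i/Lif medium, was sequenced, with 1 library per line. O48 was the parental WT line (passage 40). ΔDSM-O48-1 carried mutations of Dmpk, Six5 and Mbnl1 (passage 60), and ΔDSMD-O48-2 was derived from it by a further mutation of Dmwd (passage 70). An androgenetic haploid line carries a paternal genome alone, and all 3 lines also lacked the H19 and IG DMRs, which the parental line had lost before the other mutations were made. Each mutant line was 1 clone, and mutation, cloning and passage cannot be told apart in these data. The sequencing served to look for off-target changes in the mutant lines.

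Dux proteins are transcription factors with a pair of homeodomains near the N terminus, which bind DNA, and a C-terminal part that activates transcription. In the mouse, Dux is known for switching on genes of the cleavage-stage embryo, and in embryonic stem cell cultures it is active in rare cells that resemble that stage. The human relative DUX4 lies in a macrosatellite repeat and is known for its role in facioscapulohumeral muscular dystrophy. In mice too, Dux genes lie in a tandem array of near-identical copies, which reference assemblies hold in part.

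In GRCm38.p6, LOC100504180 (RefSeq product double homeobox protein 4-like) spans chr10:58222403-58225832 on the minus strand, with a coding sequence at chr10:58222972-58224996. The sites of id168241 lie in the RefSeq gene Duxf3 (double homeobox protein 4), chr10:58229505-58233089 on the minus strand, with a coding sequence at chr10:58230651-58232675. Both coding sequences are 2025 bp long and encode 674 residues. They lie 7679 bp apart and differ at 37 of 2025 bases (98.2% identity) and at 27 of 674 residues. The conserved motif of the DNA-recognition helix of a homeodomain was found at residues 65 to 70 and 159 to 164 of both proteins. It is a part of the homeodomain, whose borders were not mapped. Sites upstream of, between or past the motifs can therefore lie within a homeodomain. Alignment of the coding sequence to the whole reference found 5 matches of at least 500 bases on chromosome 10, of which 2 were full length. The others were in Gm10807 (808 aligned bases, 98.1% identity), Gm4981 (1111 aligned bases, 81.6%) and Gm9919 (618 aligned bases, 90.3%). The same 5 matches recurred on 1 unplaced patch sequence that repeats the region, and nowhere else.

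The following windows of 29 bases, read from GRCm38.p6 on the minus strand, the coding strand of both genes, are shown because the results below turn on them. The capital marks the base of the site as the reference has it. Substitutions are named as reference base, chromosome 10 position and alternate base on the plus strand, so that A58224929G is a T-to-C change on the coding strand. Protein changes are named as in the deposited annotation, whose codon numbers in id168241 are higher by 66 than those of the RefSeq protein.
LOC100504180 M23T (A58224929G), chr10:58224915-58224943: gcggcgcaggaagaTggtttggcaggcct
id168241 M89T (A58232608G), chr10:58232594-58232622: gcggcgcaggaagaTggtttggcaggcct
LOC100504180 W167R (A58224498G), chr10:58224484-58224512: accgaagagctcggTggcgccacaggagg
LOC100504180 R332C (G58224003A), chr10:58223989-58224017: aagtggcacagcccCgtggagcgggccaa
LOC100504180 C515R (A58223454G), chr10:58223440-58223468: aagtggcacagcccTgtggagtgggccaa
LOC100504180 L454V (A58223637C), chr10:58223623-58223651: tggatgaagtccaaTtagaagagcatgct
LOC100504180 Q294* (G58224117A), chr10:58224103-58224131: tgcatgaaggttccCaggagagcttttgg
id168241 R120Q (C58232515T), chr10:58232501-58232529: ggagctggccaagcGaatgggggtctcag
id168241 L510F (C58231344G), chr10:58231330-58231358: cccctggagctcttGctctatcaactgtt
The windows of M23T and M89T are the same sequence, as the site lies at the same place of both genes. R332C and C515R lie 549 bases (183 codons) apart within LOC100504180, at the same place of an internal repeat of the coding sequence. Each of the latter pair has as its alternate base the reference base of the other.

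Depth was read against a baseline, the median depth over 4194 sites elsewhere in the table that were called homozygous for the alternate base in all 3 lines. The baseline was 30, 31 and 30 reads in O48, ΔDSM-O48-1 and ΔDSMD-O48-2, and 1 baseline stands for sequence present once per haploid genome. Over the sites of both genes, depth in O48 ranged from 24 to 710 reads with a median of 143 (104 sites). In ΔDSM-O48-1 it ranged from 31 to 694 with a median of 152 (104 sites), and in ΔDSMD-O48-2 from 5 to 664 with a median of 123 (103 sites). These medians were 4.77, 4.90 and 4.10 baselines. The ranges of the 3 lines overlapped almost wholly. At least 10 baselines were reached by 27 of 104 sites in O48, 28 of 104 in ΔDSM-O48-1 and 26 of 103 in ΔDSMD-O48-2, which is 26.0%, 26.9% and 25.2%. Among the other sites of the table, 2.40%, 2.30% and 2.31% reached that depth.

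**Figure D1:**
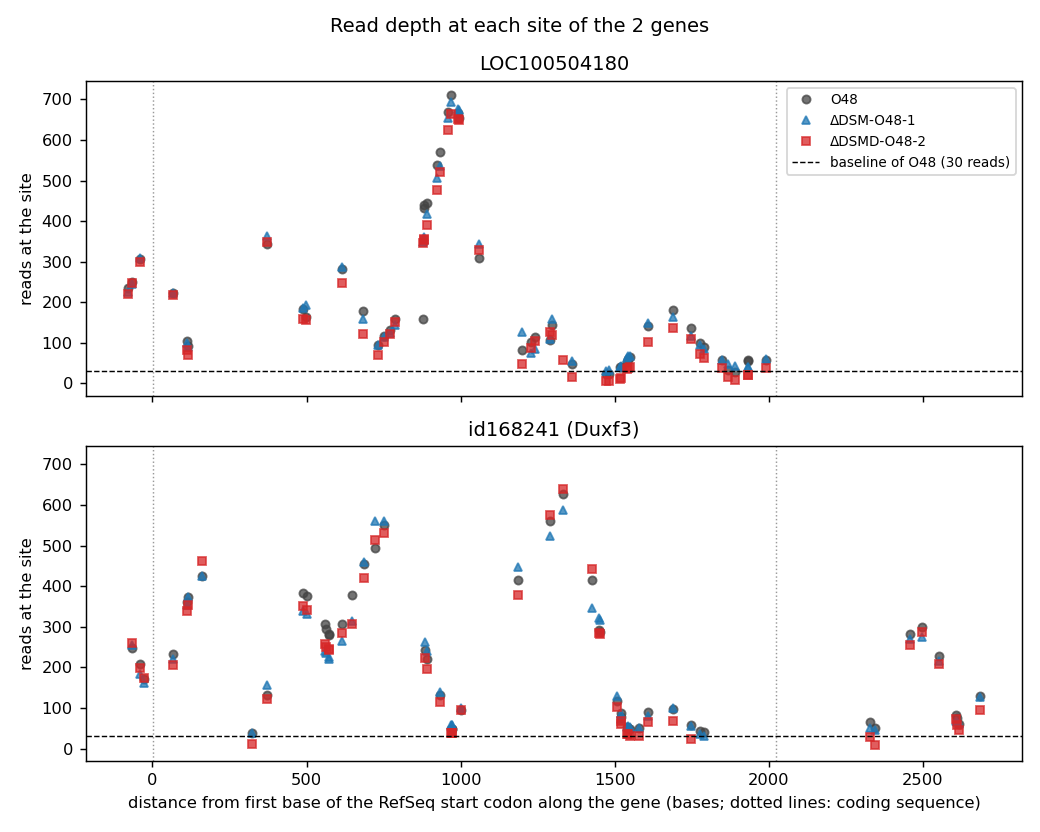
Reads at each site of LOC100504180 (upper panel) and id168241 (lower panel) in the 3 lines, by distance in bases from the first base of the RefSeq start codon. The points of the 3 lines lie near each other at most sites, and the highest, up to 710 reads, lie in the internal repeat near the middle of the coding sequence of LOC100504180. The dashed line is the O48 baseline of 30 reads.

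Depth varied more along the genes than between lines. In LOC100504180, the median over codons 165 to 347, the stretch of 1 repeat length after the second homeodomain motif, was 433 reads in O48, against 354 in ΔDSM-O48-1 and 353 in ΔDSMD-O48-2 (17 sites). Over codons 348 to 674 it was 60 reads in O48 (25 sites), 67 in ΔDSM-O48-1 (25 sites) and 40 in ΔDSMD-O48-2 (26 sites). The deepest site of the pair was Q324K of LOC100504180 (G58224027T), with 710, 694 and 664 reads. Near it, C320F had 668, 653 and 624 reads, P331R had 666, 676 and 651, and R332C had 655, 674 and 650. In id168241, the deepest was L510F, with 626, 588 and 640 reads. The shallowest site was L491M (G58223526T) in LOC100504180, with 24, 31 and 5 reads, and S494 beside it had 24, 33 and 6.

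The depth of a single gene may understate the array, since reads of any copies missing from the reference can be placed on either gene. Where the reads came from was not tested. At 21 aligned places, the same change was listed in both genes, and 20 of them had values in both genes in O48 and ΔDSM-O48-1 and 19 in ΔDSMD-O48-2. The summed depth of both genes had a median of 466 reads in O48 (range 106 to 703), 458 in ΔDSM-O48-1 (116 to 675) and 470 in ΔDSMD-O48-2 (71 to 703). This was 15.5, 14.8 and 15.7 baselines, with ranges of 3.53 to 23.4, 3.74 to 21.8 and 2.37 to 23.4. These medians cover partly different pairs. The ΔDSMD-O48-2 set lacks E597K with E663K (4.37 baselines in O48) and T593A with T659A (4.7 in O48). It alone holds L444F with L510F (23.3), so the order of the medians does not compare the lines. At the aligned pair M23T and M89T, near the start of the coding sequence, the sum was 455, 443 and 425 reads, or 15.2, 14.3 and 14.2 baselines. At R124L and R190L between the homeodomain motifs it was 476, 519 and 470 reads, or 15.9, 16.7 and 15.7 baselines. At C515R and C581R, in the last part of the coding sequence, it was 110, 123 and 74 reads, or 3.67, 3.97 and 2.47 baselines. At 1 baseline per copy, the first 2 of these pairs had the depth of 14.2 to 16.7 copies and the last pair that of 2.47 to 3.97, against 2 full-length copies in the reference. The partial matches of the reference differ along the gene. Those in Gm10807 and Gm9919 cover the place of C515R, and that in Gm4981 covers the places of M23T and R124L. Reads placed on the partial matches are not in the sums, so the pairs do not compare parts of the array. The deposited depths hold neither mapping qualities nor reads placed elsewhere, so these ratios are not counts of copies. Sfi1, a deep gene on another chromosome, had a median of 1069, 1073 and 989 reads over 55 sites, or 35.6, 34.6 and 33.0 baselines. Heatr7b1, with 189 sites, had 161, 165 and 158 reads.

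In a haploid genome, a gene present once can hold 1 base at a site. Mixed sites were common over the whole table, and in this pair they were the rule in O48 and ΔDSM-O48-1. In O48, 89 of the 104 sites were called heterozygous, 14 had the reference genotype and 1 was homozygous for the alternate base. In ΔDSM-O48-1, 87 were heterozygous, 13 had the reference genotype and 4 were homozygous. In ΔDSMD-O48-2, 39 of the 99 sites with at least 10 reads were heterozygous, 8 had the reference genotype and 52 were homozygous. Among the other sites with at least 10 reads, 5025 of 10934, 5077 of 10989 and 5150 of 10932 were heterozygous in the same order of lines. Those homozygous for the alternate base numbered 4122, 4161 and 4152. The commonest pattern, at 47 of 105 sites, was heterozygous in O48 and ΔDSM-O48-1 and homozygous for the alternate base in ΔDSMD-O48-2. The next, at 27 sites, was heterozygous in all 3 lines.

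The share of alternate reads had a median of 48.3, 49.0 and 93.5% in O48, ΔDSM-O48-1 and ΔDSMD-O48-2, over sites with at least 10 reads (n = 104, 104 and 99). The middle 50% of sites lay between 16.8 and 76.6% in O48, between 14.4 and 80.1% in ΔDSM-O48-1 and between 32.3 and 100% in ΔDSMD-O48-2. The median shares of LOC100504180 were 44.6, 38.1 and 79.9%, and those of id168241 were 55.8, 55.9 and 96.1%. Among sites of the pair with at least 100 reads, the medians were 58.3, 66.9 and 67.0%. At the other sites of the table with at least 10 reads, the medians were 41.2, 41.1 and 41.5%. A share of 95% or more was found at 0 of 104 sites of the pair in O48, at 1 of 104 in ΔDSM-O48-1 and at 46 of 99 in ΔDSMD-O48-2. Among the other sites with at least 10 reads, such a share was found at 4089 of 10934, 4129 of 10989 and 4127 of 10932. The pair was thus nearer to the rest of the table in ΔDSMD-O48-2 than in the other lines.

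Reads of 2 lines at each site were compared by two-sided Fisher's exact tests over the whole table, with Benjamini-Hochberg adjustment within each pair of lines. With 1 library per line, the tests compare libraries and not genotypes, and nearby sites share reads and are not independent. Between O48 and ΔDSMD-O48-2, 5.13% of all 10825 tested sites had an adjusted p under 0.05. Of the sites of both genes, 65 of 98 were called, 29 of 47 in LOC100504180 and 36 of 51 in id168241. Alternate shares were higher in ΔDSMD-O48-2 at 64 of the 65. No other gene name had as many called sites: the next was Sp110, with 18 of 62. Between ΔDSM-O48-1 and ΔDSMD-O48-2, 4.36% of all 10861 tested sites were called, and 63 of 98 in the pair, 30 in LOC100504180 and 33 in id168241. The alternate share was higher in ΔDSMD-O48-2 at 62 of the 63. Between O48 and ΔDSM-O48-1, 4.04% of all 10881 tested sites were called, and 9 of 104 in the pair, 6 with a higher and 3 with a lower alternate share in ΔDSM-O48-1. The comparisons share libraries and are not independent of each other.

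**Figure D2:**
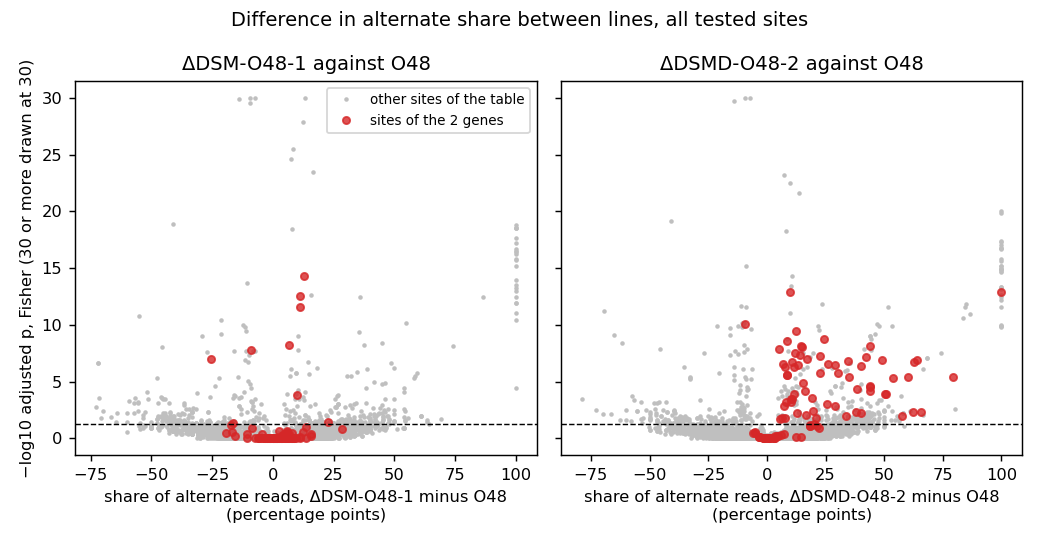
Difference in the share of alternate reads between each mutant line and O48 in percentage points (horizontal axis) against the −log10 of the adjusted p of Fisher's exact test (vertical axis), for sites of the 2 genes (red) and all other tested sites (gray). The dashed line is an adjusted p of 0.05. In ΔDSMD-O48-2, 65 of 98 sites of the 2 genes lie above it, 64 of them on the side of a higher alternate share, while in ΔDSM-O48-1 9 of 104 do.

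At most of the called sites, 54 of the 65 between O48 and ΔDSMD-O48-2, the reads followed a shared pattern, in which ΔDSMD-O48-2 had few or no reads with the reference base. These 54 belong to a class of sites with 0.5 to 1.5 baselines of reference reads in O48 and a non-reference genotype there. This class was defined after the pattern had been seen and uses O48 alone. It held 59 of the 105 sites, 25 in LOC100504180 and 34 in id168241. The reference reads in O48 ranged from 20 to 45 with a median of 31, or 1.03 baselines. Their range in ΔDSM-O48-1 was 15 to 43 with a median of 26, or 0.839 baselines. The range in ΔDSMD-O48-2 was 0 to 18 with a median of 0. S494 and L491M, with 6 and 5 reads there, were the exceptions that had reference reads alone in ΔDSMD-O48-2. The range of ΔDSMD-O48-2 lay below that of O48, and each of the 59 sites had fewer reference reads than in O48. Alternate reads had a median of 68, 70 and 69 in the same order of lines. Over the class, reference reads summed to 1816, 1621 and 165, and alternate reads to 7155, 7344 and 7694.

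No reference read was left in ΔDSMD-O48-2 at 31 of the 59 sites, 10 in LOC100504180 and 21 in id168241. By the same rule over the whole table, 1.19% of 2776 sites had none, and of these 33 sites 2 lay outside the pair. ΔDSM-O48-1 had reference reads at all 59. The 31 sites had 21 to 38 reference reads each in O48 and 15 to 33 in ΔDSM-O48-1. They lay between positions 58223128 and 58232717, a distance of 9589 bp that spans both coding sequences. They were picked by their count of 0 in ΔDSMD-O48-2, and over the whole class that line had 165 reference reads beside 7694 alternate reads. A separate rule, without the limit on baselines, asked for a heterozygous call and at least 10 reference reads in both O48 and ΔDSM-O48-1. It also asked for at least 10 reads in ΔDSMD-O48-2. By this rule, 27 of 78 sites of the pair and 0 of 3643 other sites had no reference read in ΔDSMD-O48-2. The 78 sites are not a part of the class of 59, though the 2 sets overlap.

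**Figure D3:**
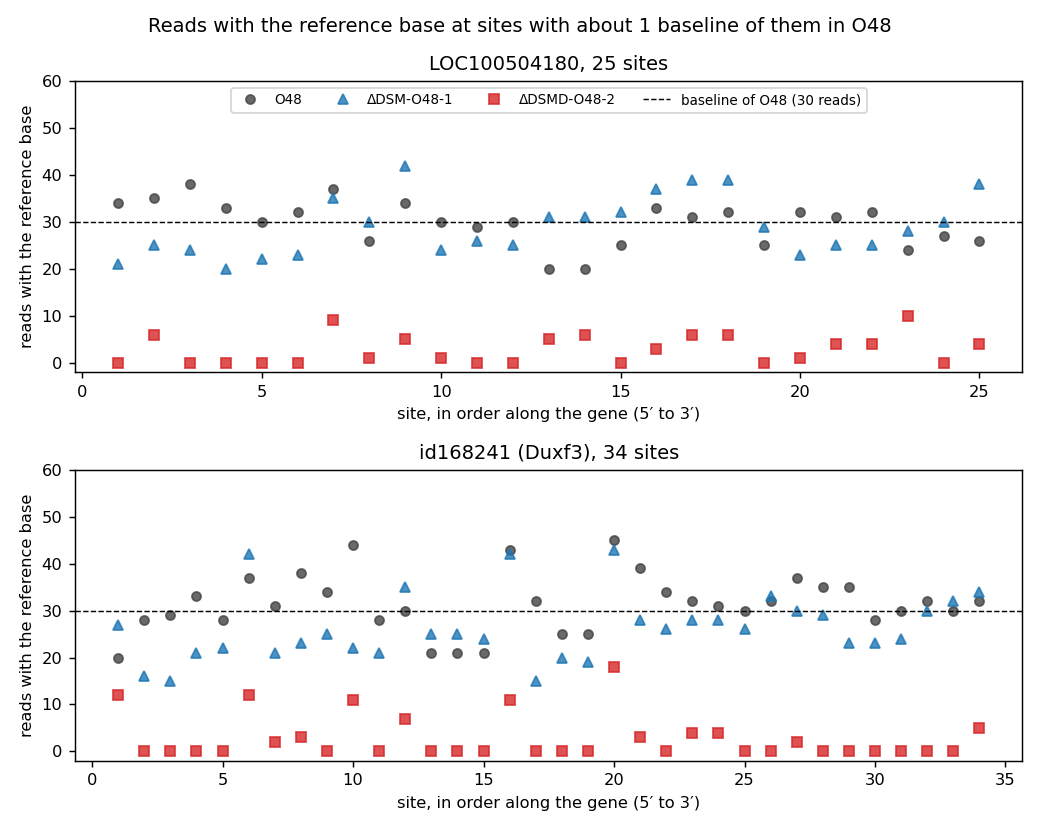
Reads with the reference base at the 59 sites that had 0.5 to 1.5 baselines of them in O48, in order along each gene, for the 3 lines. The O48 points scatter about the dashed line of 30 reads because the sites were chosen by them, the ΔDSM-O48-1 points lie between 15 and 43, and the ΔDSMD-O48-2 points lie between 0 and 18.

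M23T, upstream of the first homeodomain motif of LOC100504180, had 189 of 222 alternate reads in O48, 203 of 223 in ΔDSM-O48-1 and 218 of 218 in ΔDSMD-O48-2. The reference reads were thus 33, 20 and 0. The share of 85.1% in O48 (95% interval 79.8 to 89.5%) was below the 100% of ΔDSMD-O48-2 (98.3 to 100%; Fisher exact adjusted p = 8.94e-09), while O48 and ΔDSM-O48-1 did not pass the test (exact adjusted p = 0.382). M89T, the same place in id168241, had 200 of 233, 199 of 220 and 207 of 207 alternate reads. Its reference reads were 33, 21 and 0, nearly those of M23T. E39K of LOC100504180 had 32, 23 and 0 reference reads beside 61, 66 and 69 alternate reads. The stretch before the coding sequence showed the same, since C58225038A had 38, 24 and 0 reference reads and 269, 286 and 300 alternate reads (exact adjusted p = 3.79e-10 between O48 and ΔDSMD-O48-2).

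W167R lies just past the second homeodomain motif, and its alternate base is the reference base of Duxf3 at the aligned place. It had 138 of 164, 163 of 193 and 156 of 157 alternate reads, so that 26, 30 and 1 reads held the base of the LOC100504180 reference. In the other direction, T574P of id168241 (T58231154G) had 34, 26 and 0 reads with the reference base and 43, 46 and 60 with the alternate, which is the reference base of LOC100504180. Both genes thus had fewer reads with their own reference base in ΔDSMD-O48-2. L510F of id168241 was the 1 site called homozygous in all 3 lines, with 594 of 626, 573 of 588 and 640 of 640 alternate reads. Its 32, 15 and 0 reference reads followed the same order. At the aligned L444F of LOC100504180, a genotype was given in ΔDSMD-O48-2 alone, with 59 of 59 alternate reads.

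Among class sites at which the other gene of the reference holds the alternate base, 20 of 23 had no reference read in ΔDSMD-O48-2, and the most was 2. Where the other gene holds the same reference base, this was so at 11 of 35, and the most was 18. Likewise, 20 of 28 sites whose 31 surrounding reference bases occur once on the chromosomes had none, against 11 of 31 sites whose 31 bases occur more often. Summed over both genes, the 11 aligned pairs with both sites in the class had a median of 66 reference reads in O48 (55 to 78), 58 in ΔDSM-O48-1 (40 to 67) and 10 in ΔDSMD-O48-2 (0 to 18). This was 2.20, 1.87 and 0.333 baselines. The total depth of these pairs was 15.5, 14.6 and 14.1 baselines.

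**Figure D4:**
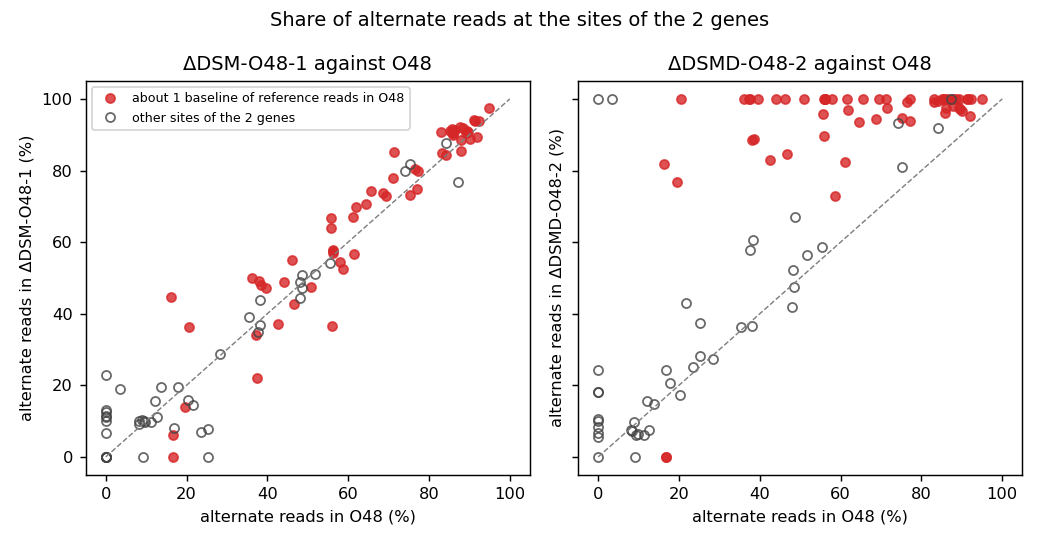
Share of alternate reads (%) at the sites of the 2 genes in ΔDSM-O48-1 (left) and ΔDSMD-O48-2 (right) against O48, with filled points for the 59 sites that had about 1 baseline of reference reads in O48 and open points for the others. The points lie near the dashed line of equal shares in ΔDSM-O48-1, and most filled points lie near 100% in ΔDSMD-O48-2.

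In ΔDSM-O48-1 the reference reads of the class were lower than in O48 at 38 of 59 sites, and their median ratio to O48 per baseline was 0.806 (range 0.454 to 1.5). The ratio of alternate reads had a median of 0.996. No site of the class passed the test between O48 and ΔDSM-O48-1 (0 of 59). Between O48 and ΔDSMD-O48-2, 54 of 56 tested class sites were called, and 11 of 42 other sites of the pair. The class was formed after the pattern was seen, from O48 reads that enter these tests. Its higher count is therefore partly built in and describes the class only. Calls among sites elsewhere that meet the same rule were not counted.

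The other 46 sites mostly had a minor share of alternate reads. Over the 43 of them with values in all lines, the median shares of the lines were 16.8, 13.0 and 24.4%, in that order. R332C of LOC100504180 had 315, 330 and 340 alternate reads among its 655, 674 and 650 and did not pass the test in any pair (exact adjusted p = 1, 0.631 and 0.894 for O48 against ΔDSM-O48-1, O48 against ΔDSMD-O48-2 and ΔDSM-O48-1 against ΔDSMD-O48-2). Its counterpart in the internal repeat, C515R, had 28 of 60, 29 of 68 and 33 of 39 alternate reads, and its 32, 39 and 6 reference reads followed the class. R163Q, which changes a residue of the second homeodomain motif of LOC100504180, had 15 of 183, 17 of 185 and 12 of 160 alternate reads. The aligned R229Q of id168241 had 34 of 383, 35 of 340 and 34 of 350, and neither passed the test in any pair. These were the sites of the pair within the motifs, 1 in each gene, and sites in other parts of the homeodomains were not counted.

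No alternate read was found in O48 at 12 of the 104 sites of the pair, although later lines had some. Among the other sites of the table with at least 10 reads, O48 had none at 1540 of 10934. Having no alternate read in O48 is thus not particular to the pair. Of the 12 sites, 3 are adjacent bases of LOC100504180 and share reads. Q294R (T58224116C) had 0 of 439 alternate reads in O48, 47 of 362 in ΔDSM-O48-1 and 30 of 357 in ΔDSMD-O48-2. Q294*, annotated as a premature stop in the middle of the reading frame, had 0 of 433, 39 of 354 and 24 of 353. Q294R and Q294* change the same codon (CAG), which would be TGG, tryptophan, with both changes in the same read. The counts do not give whether the same reads held both, so a stop is not shown. The synonymous change at S293 had 0 of 160, 35 of 349 and 19 of 345, and its depth in O48 was less than that of the neighbouring bases. For Q294*, the shares were 0% (up to 0.693% with 3 counts), 11.0% (8.0 to 14.8%) and 6.80% (4.40 to 9.95%). Both mutant lines differed from O48 (exact adjusted p = 2.49e-12 and 2.83e-07) and did not pass the test between each other (exact adjusted p = 0.399). The 39 and 24 alternate reads were 1.26 and 0.80 baselines.

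R307H of id168241 (C58231954T) was likewise found in both mutant lines, with 0 of 493 alternate reads in O48, 38 of 560 in ΔDSM-O48-1 and 51 of 513 in ΔDSMD-O48-2 (exact adjusted p = 5.67e-09 and 1.23e-13 against O48). R120Q, upstream of the first homeodomain motif of id168241, was found in ΔDSM-O48-1 alone, with 0 of 426, 48 of 425 and 0 of 462 alternate reads. In the line derived from ΔDSM-O48-1 it was not detected (3 counts would be 0.649%), and ΔDSM-O48-1 differed from both other lines (exact adjusted p = 2.79e-13 and 1.28e-13). S542L of id168241 (G58231249A) was found in O48 alone, with 38 of 414, 0 of 345 and 0 of 442 alternate reads (exact adjusted p = 1.63e-08 and 8.54e-11 for O48 against the others). At these 3 sites, the alternate reads came to between 38 and 51 in the lines that had them.

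Alternate reads were found in ΔDSMD-O48-2 alone at 5 sites, all in LOC100504180. How many other sites of the table had this pattern was not counted. L454V, whose alternate base is that of Duxf3 and Gm10807, had 0 of 49 and 0 of 56 alternate reads in O48 and ΔDSM-O48-1 and 17 of 17 in ΔDSMD-O48-2 (exact adjusted p = 1.27e-13 between O48 and ΔDSMD-O48-2). It was the 1 site at which the first 2 lines had the reference base alone and ΔDSMD-O48-2 the alternate base alone. T433I (G58223699A) had 0 of 144, 0 of 159 and 29 of 119 (exact adjusted p = 1.78e-09). D263G had 0 of 160, 0 of 145 and 16 of 152 (exact adjusted p = 0.000367), and V645E and P644L, 3 bases apart, had 4 of 22 each in ΔDSMD-O48-2 and did not pass the test.

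At 1 site of the internal repeat, the alternate share was lower in ΔDSM-O48-1 than in both other lines, also by a quasi-binomial test. M400R of LOC100504180 (A58223798C) had 21 of 83 alternate reads in O48, 0 of 128 in ΔDSM-O48-1 and 18 of 48 in ΔDSMD-O48-2 (exact adjusted p = 9.24e-08 for O48 against ΔDSM-O48-1 and 1.90e-09 between the mutant lines). E414K had 27 of 115, 6 of 86 and 26 of 104, with an exact adjusted p of 0.0475 between O48 and ΔDSM-O48-1 that became 0.0626 in the quasi-binomial test. T410A had 26 of 103, 6 of 76 and 24 of 88 and did not pass between O48 and ΔDSM-O48-1 (exact adjusted p = 0.0641). The same changes were listed 549 bases away as M583R, E597K and T593A. At these the 3 lines had 104, 94 and 108 alternate reads, 58, 60 and 58, and 68, 70 and 68. In id168241, T659A, at the place aligned with T593A, had 0 of 42 alternate reads in O48 and 8 of 35 in ΔDSM-O48-1 (exact adjusted p = 0.0347), with no genotype in ΔDSMD-O48-2. Which of the repeated places a read was assigned to can differ between libraries, and its part in these differences was not tested.

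Of 102 coding sites in the deposited annotation, 90 were nonsynonymous (88.2%), 10 were synonymous and 2 were stop gains. Among the other sites of the table, 57.1% of coding sites were nonsynonymous. Transitions made up 58 of 105 sites (55.2%), against 57.0% elsewhere. The protein changes of the table matched those derived from the RefSeq coding sequence at 48 of 48 sites of LOC100504180 and 42 of 42 of id168241, after the shift in codon number. The remaining 12 sites of id168241 lay outside the RefSeq coding sequence, 3 before it and 9 after its stop codon, which leaves 79 nonsynonymous sites in both genes. K939*, the annotated stop gain of id168241 (T58230059A), was one of those after the stop codon. It had 31 of 61, 29 of 61 and 45 of 45 alternate reads, so that its 30, 32 and 0 reference reads followed the class. A58225076G, annotated as a gain of a start before the coding sequence of LOC100504180, had 202 of 236, 204 of 225 and 220 of 220. Sites were fewer per codon up to the end of the second homeodomain motif. LOC100504180 had 5 sites in 164 codons and 43 in the 510 codons after it (3.05 and 8.43 per 100 codons), and id168241 had 7 and 35 (4.27 and 6.86).

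A minority of the alternate bases were found in other copies of the reference. The other gene held the alternate base at the aligned place at 29 of 105 sites and the reference base at 74. Of 62 sites with a counterpart in the internal repeat, 16 had the alternate base there. An exact match of the 31 bases around the site, with the alternate base, was found elsewhere in the reference for 15 of 105 sites (14.3%), against 14.6% of all sites of the table. The 31 bases with the reference base occurred more than once on the chromosomes for 58 of 105 sites (55.2%), against 22.5% of all sites. Depth did not follow this, with a median of 178 reads in O48 where the 31 bases occurred once and 129 where they occurred more often.

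Within 500 kb of the pair, 5 other sites were listed, in 3 genes. Gm4981, the next gene on the side of id168241 and itself partly alike, had 1 site (G58235103C), with 0 of 50 alternate reads in O48, 0 of 55 in ΔDSM-O48-1 and 14 of 43 in ΔDSMD-O48-2 (exact adjusted p = 0.000301 between O48 and ΔDSMD-O48-2). At the 3 sites of Gm19459, which lie in the stretch that aligned with the coding sequence in Gm9919, reads with the reference base stayed, with 48, 43 and 52 at the deepest (G58239643A). None of the 3 passed the test in any pair. The 1 site of Edar, the ectodysplasin receptor gene, was homozygous for the alternate base in all lines, with 41, 26 and 29 reads.

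Of 33 listed genes that Dux is known to act on or that are known to act on Dux, 5 had sites in the table, 169 in all. These were Sp110 and Tdpoz1 to Tdpoz4, all of multigene or amplified loci themselves. Sp110, with 63 sites, had a median depth of 175, 166 and 160 reads, and 13 of its sites were called between O48 and ΔDSM-O48-1, 18 between O48 and ΔDSMD-O48-2 and 9 between the mutant lines. Of its 40 sites that were mixed in O48 and ΔDSM-O48-1, 0 had no reference read in ΔDSMD-O48-2. Of the Tdpoz genes, which encode TD and POZ domain proteins of the oocyte and early embryo, Tdpoz3 had 1 site called, between the mutant lines, and the other 3 had 0 in any pair. The expression of Dux and of these genes was not analysed here.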

How the data were processed

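The authors called variants in 1 library per line. The labels' processing notes name CASAVA 1.8.2, BWA 0.7.12, SAMtools, Picard and GATK, and mm10; the caller's settings and filters are not given in the sources used here. The deposited counts are whole reads per site, and reads with the reference or alternate base, without normalization. The deposited quality scores and the authors' allele fraction, a share of genotypes, were not used for results. The members and lists were chosen with earlier results of these data known.

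The table (14685 entries, 11635 positions) was reduced to 11544 single-base sites with 1 alternate base, each given its effect of highest impact. All 11544 reference bases matched GRCm38.p6, whose RefSeq annotation was used. Shares have exact Clopper-Pearson intervals at 95%; a count of 0 allows 3 counts of the total. Intervals and tests cover counting error only. Fisher's exact tests needed 10 reads in both lines. On simulated independent reads for O48 against ΔDSMD-O48-2 (10825 sites), they called 189 of 200 changed sites and 3 others. The changed sites had mixed shares and were set to alternate reads alone in ΔDSMD-O48-2, so smaller changes were not simulated. The search for exact matches found the planted number for 300 of 300 queries at each length. Named sites were stop, start and splice changes, sites homozygous in a line, the 10 with the smallest adjusted p, the 5 deepest and 5 shallowest, and the 5 nonsynonymous sites of highest share per gene; E39K, E414K, T410A, R163Q and others beside them were named after their values were seen. Alternatives were other baselines, depth minimums, adjustments, matches and annotations. BLAST 2.17.0, samtools 1.23.1, scipy 1.17.1, pandas 2.3.3 and Python 3.11.15 were used.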

Additional observations from a re-analysis of the deposited data

How the results depend on the processing

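Depth behind a call ranged from 5 to 710 reads, so shares of the shallowest sites are the least certain. The relative depth moved from 4.77, 4.90 and 4.10 baselines (O48, ΔDSM-O48-1 and ΔDSMD-O48-2) to 7.09, 6.71 and 6.51 with the mean, to 12.65, 13.1 and 12.1 over the 2 sites without a neighbour within 100 bp, to 15.5, 14.8 and 15.7 with both genes summed, and with chromosome 10 as baseline to 5.85 in ΔDSM-O48-1 and 4.92 in ΔDSMD-O48-2. Those sums covered partly different pairs in ΔDSMD-O48-2. With at least 100 reads, median alternate shares were 58.3, 66.9 and 67.0%, near-equal in the mutant lines. Counts of differing sites, in the order O48 with ΔDSM-O48-1, O48 with ΔDSMD-O48-2 and the mutant lines, moved from 9, 65 and 63 to 15, 18 and 17 when only a reference against a non-reference genotype counted, but to 18, 68 and 65 when any genotype difference did (an added alternative), to 0, 2 and 2 over those 2 sites, and to 2, 33 and 35 when 20 points of difference were also asked for, an alternative chosen after seeing the data. Alternate bases found elsewhere numbered 25 with 21 bases. Sites without a reference read in ΔDSMD-O48-2, an added result, were 31 of 59 (52.5%), 20 of 28 (71.4%) where the reference bases occur once, and 0 of 2 without neighbours. No paired analysis was possible because each line had 1 library.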
